A study of Caenorhabditis elegans with 4 samples.

Results

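The regions described here are the 1289 combined peaks on chromosome III, out of 6333 combined peaks on all 6 chromosomes, called in L3 larvae of Caenorhabditis elegans for a GFP-tagged homeodomain factor. They were taken by chromosome name alone, so no measured value entered their choice. Chromatin immunoprecipitation with sequencing (ChIP-seq) was done on 2 anti-GFP ChIP samples, with 2 input samples of total chromatin DNA that were not analysed here. All 4 samples came from hermaphrodites of strain OP241, which carries the unc-119 mutation written unc119(ed3) in the labels and the bombarded transgene wgIs241 with ceh-38 fused to TY1, EGFP and FLAG plus an unc119 rescue copy. ChIP samples were precipitated with an affinity-purified goat polyclonal antibody raised against EGFP, and the input samples were set aside before that step. The sample titles name the factor as CEH-28, whereas strain and genotype name ceh-38, so it is called the tagged factor below. The strain is a single transgenic line, and no label ties the replicates to separate cultures, so their spread may be technical.

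CEH-38 belongs to the ONECUT class, whose proteins bind DNA through a cut domain and a homeodomain, and in C. elegans members of this class take part in the expression of genes shared by all neurons. CEH-28 is an NK-2 class homeodomain protein known from the pharyngeal motor neuron M4. Chromosome III is an autosome without a localised centromere, and like the other autosomes it has a gene-dense centre flanked by arms that are richer in repeats. The C. elegans Hox genes lie on this chromosome. Which genes lie at the peaks is not given here, because gene positions on the build of the peak lists, WormBase WS180, were not used, and peak sequences were not used for the same reason.

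The replicate 1 list held 936 peaks on chromosome III and the replicate 2 list held 649 (792.5 ± 203, SD, n = 2). These were 22.9% and 22.6% of all peaks in the replicate 1 and replicate 2 lists, and the 1289 combined peaks were 20.4% of the combined list. Peaks of the 3 lists spanned 13.8 Mb of the chromosome, from 1657 to 13779136, and combined peaks covered 4.27% of that span. Replicate 1 peaks covered 2.76% and replicate 2 peaks 2.60%. Each peak carries a q-value from the peak caller, which is given below as −log10 q and called the strength of the peak, larger numbers meaning stronger peaks. On chromosome III strength ran from 3.33 to 302.2 in the combined list, with a median of 7.58. The lists hold no read counts, so depth is unknown and a peak missing from a list may be a weak peak that was not called. Some very strong peaks were missing from lists too, as described below, so absence does not always go with weakness. The combined list stands for the same 2 ChIP samples as the replicate lists and is no separate measurement.

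Peaks were present along the whole chromosome, and their number varied between windows. In 13 complete windows of 1 Mb counted from coordinate 1, the combined list held 94 ± 14 peaks (SD over windows), with a lowest count of 67 and a highest of 112. The 3 densest windows were those from 11 to 12 Mb with 112 combined peaks, from 3 to 4 Mb with 111 and from 2 to 3 Mb with 110. The window from 0 to 1 Mb held 67 combined peaks, that from 6 to 7 Mb held 79 and that from 9 to 10 Mb held 80, and these were the 3 sparsest. Sides and middle were not cleanly set apart, as the window from 5 to 6 Mb held 104 and that from 12 to 13 Mb held 85. The replicate lists had their highest count elsewhere, in the window from 1 to 2 Mb, with 99 peaks in replicate 1 and 62 in replicate 2. The combined list held 102 peaks there, hardly more than replicate 1 alone. The lowest counts of the replicate lists, 49 and 38, both fell in the window from 9 to 10 Mb. Across the 13 windows the counts of both replicates had a Spearman's rho of 0.95, given as a description, because neighbouring windows of one chromosome are not independent.

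**Figure D1:**
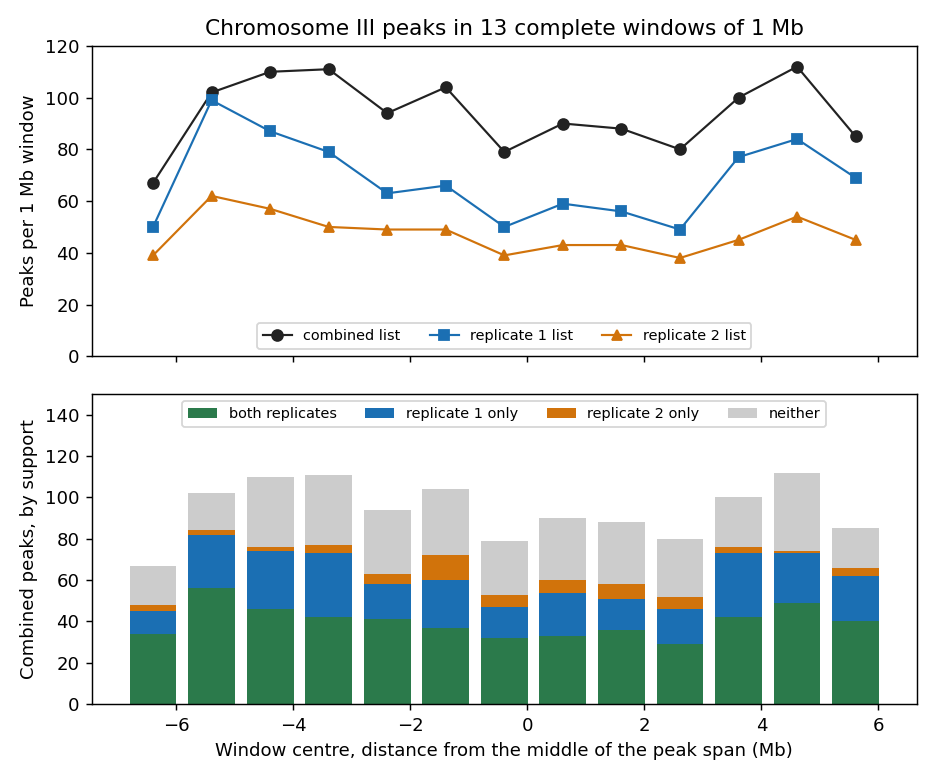
Number of chromosome III peaks in the 13 complete windows of 1 Mb, plotted by the distance of the window's centre from the middle of the peak span (Mb). The upper panel shows the combined, replicate 1 and replicate 2 lists, and the lower panel divides the combined peaks by support. The window from 1 to 2 Mb stands out in both replicates, with 99 and 62 peaks, and the lowest replicate counts, 49 and 38, share one window right of the middle.

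On a finer scale the count varied more. Windows of 100 kb held a median of 9 combined peaks, none was empty, and the range was 1 to 22. The highest count was reached in the windows from 1.8 to 1.9 Mb and from 11.2 to 11.3 Mb, each with 22 combined peaks and 19 replicate 1 peaks, and with 14 and 11 replicate 2 peaks. The first of these, from 1800001 to 1900000, mixed very strong and very weak peaks. Of its 22 combined peaks, 12 overlapped peaks of both replicates and 3 overlapped neither, 6 had a strength above 100, and strengths ran from 4.05 to 302.2. Their widths ran from 10 to 1491 bp, and together they covered 11272 bp.

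The longest stretch without a peak was nearly the same in both replicates. It ran from 9060521 to 9239700 in replicate 1 (179.2 kb) and from 9060556 to 9239671 in replicate 2 (179.1 kb). The combined list held 5 peaks in it, with strengths from 3.65 to 5.68. They could not overlap a replicate peak, because the stretch was chosen as one without any. The longest gap of the combined list lay elsewhere, from 1284936 to 1390134 (105.2 kb), and each replicate had 1 peak inside it.

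Positions were then compared between the outer parts of the chromosome, taken as the 25% of the span at each end, and the central 50%. These parts stand in for arms and centre, since arm boundaries on WS180 were not used here. The left outer part ended at 3446026 and the right outer part began at 10334767. In the combined list the outer parts held 670 of 1289 peaks (52.0%, exact 95% interval 49.2 to 54.7), or 97.3 per Mb, and the central part held 619, or 89.9 per Mb. In replicate 1 the outer parts held 79.6 peaks per Mb and the central part 56.3. Replicate 2 gave 51.2 per Mb in the outer parts and 43.0 in the central part. The ratio of outer to central density was thus 1.41 for replicate 1, 1.19 for replicate 2 and 1.08 for combined peaks. All 3 lists put more peaks in the outer parts, and the size of the excess varied between lists. For combined peaks the interval of the outer share included 50%. Combined peaks covered 4.25% of the outer parts and 4.29% of the central part, so coverage showed no outer excess in that list. In replicate 1 coverage was 3.06% outer and 2.46% central, and in replicate 2 it was 2.82% and 2.38%.

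Strong peaks were most frequent in the left outer part. The combined list held 334 peaks in the left outer part and 336 in the right one, while both replicates had more on the left, with 287 against 261 in replicate 1 and 185 against 168 in replicate 2. The strongest 10% of combined peaks began at a strength of 61.3 in the left outer part, 30.3 in the right outer part and 24.3 in the central part. In replicate 1 these values were 51.2, 25.9 and 20.6 in the same order, and in replicate 2 they were 58.2, 26.7 and 22.1. Of the 87 combined peaks stronger than 50, all of which had a peak in each replicate, 40 lay in the left outer part, 23 in the right outer part and 24 in the central part, which is as long as both outer parts together. The window from 1 to 2 Mb alone held 23 of them, while none of the 79 peaks from 6 to 7 Mb was that strong. The median width of combined peaks was lowest in the left outer part, with 297.5 bp, against 342.5 bp in the right outer part and 386 bp in the central part. The medians had the same order in replicate 1 (292, 315 and 351 bp) and in replicate 2 (399, 443 and 452.5 bp). The share of peaks of 1000 bp or more did not follow this order, and in replicate 2 it was 13.5% in the left outer part, 10.1% in the right outer part and 9.46% in the central part. Strengths and widths of the parts were not compared by a test.

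Support was counted for each combined peak as an overlap of at least 1 bp with a peak of each replicate. On chromosome III, 543 of 1289 combined peaks (42.1%, exact 95% interval 39.4 to 44.9) had support in both replicates, against 1887 of 5044 (37.4%, 36.1 to 38.8) on the other chromosomes. Over all chromosomes the share was 38.4%. The other chromosomes differed among themselves, from 33.5% on II through 35.1% on V, 36.9% on I and 39.9% on X to 41.2% on IV (38.3 to 44.1), which was close to chromosome III. A further 297 (23.0%) had support in replicate 1 only and 67 (5.20%) in replicate 2 only. Support in neither replicate was found for 382 peaks (29.6%, 27.2 to 32.2) on chromosome III and for 1878 (37.2%, 35.9 to 38.6) on the other chromosomes, with 35.7% over all. The lowest share among the others was 32.8%, on IV. Both differences passed Fisher's exact test, two-sided and adjusted by Benjamini-Hochberg over 4 comparisons, with an adjusted p of 0.00275 for support in both and 1.23e-06 for support in neither. These tests and intervals count peaks as independent, which neighbouring peaks are not, so the p-values are too small where peaks lie close together. Among the peaks kept when each list was reduced to the 50% with the lowest q, the share with support in both was 42.1% on chromosome III and 39.1% elsewhere and no longer passed (adjusted p = 0.159, Fisher's exact test).

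Support went with strength on chromosome III as it did elsewhere. Combined peaks of all chromosomes were ranked by strength and divided into 4 classes of equal size, a division chosen after the data had been seen. In the strongest class 350 of 356 chromosome III peaks had support in both replicates (98.3%), against 97.6% on the other chromosomes. In the next class the shares were 51.7% on chromosome III and 49.5% on the others, and in the weakest class 0.685% and 0.541%. For support in both, the exact intervals of chromosome III and the others overlapped in every class. For support in neither, the share in the weakest class was 75.3% on chromosome III (exact 95% interval 70.0 to 80.2) and 84.9% (82.9 to 86.8) on the others. In the second weakest class it was 43.2% (37.6 to 48.9) on chromosome III and 51.3% (48.5 to 54.0) on the others. The intervals did not overlap in the weakest class and overlapped slightly in the second weakest, and the classes were not tested one by one. Of the strongest class on chromosome III, 0 of 356 peaks had support in neither (exact 95% interval 0 to 1.03).

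**Figure D2:**
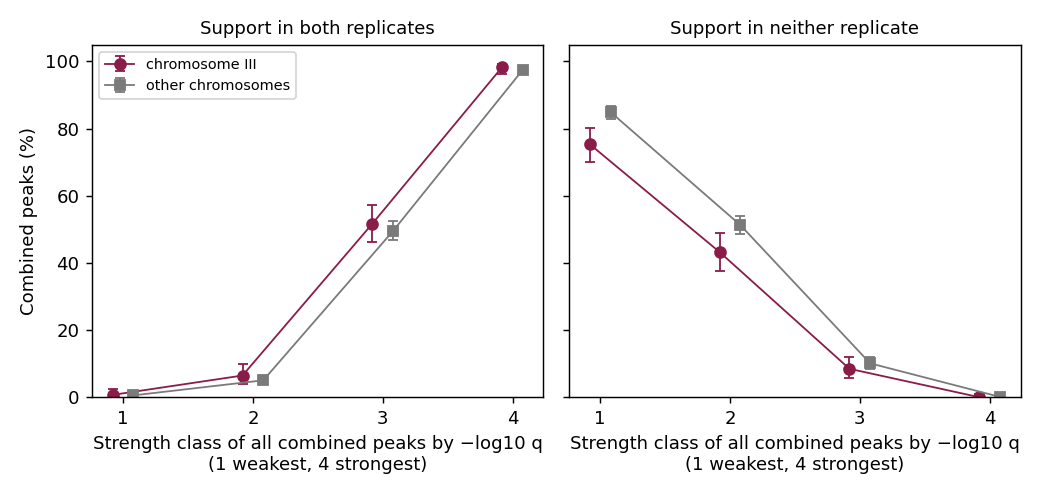
Combined peaks (%) supported by both replicates (left) and by neither (right) by strength class (−log10 q of the combined list, 1 weakest and 4 strongest), for chromosome III and for the other chromosomes. Points are shares and bars are exact 95% binomial intervals. In the strongest class support in both reaches 98.3% on chromosome III and 97.6% elsewhere, and in the weakest class 75.3% of chromosome III peaks and 84.9% of the others have support in neither.

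Within the chromosome, support was more frequent in the outer parts. Of the outer peaks, 308 of 670 (46.0%, exact 95% interval 42.1 to 49.8) had support in both replicates, against 235 of 619 central peaks (38%, 34.1 to 41.9; two-sided Fisher's exact test, p = 0.00398). With the chromosome divided into equal parts of 33% the shares were 43.9% outer and 38.1% central, and the difference did not pass (Fisher's exact test, p = 0.0511). Support in replicate 2 only was found for 2.99% of outer peaks and 7.59% of central peaks. Outer peaks were also the stronger ones. Of the 670 outer peaks 213 were in the strongest class, against 143 of the 619 central ones, and within that class support in both was 97.7% outer and 99.3% central. The share with support in both was 52.1% outer and 51.2% central in the next class. By window, support in both was highest from 1 to 2 Mb (56 of 102 peaks, 54.9%) and lowest from 5 to 6 Mb (37 of 104, 35.6%).

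Seen from the replicate lists, 575 of 936 replicate 1 peaks on chromosome III overlapped a replicate 2 peak (61.4%, exact 95% interval 58.2 to 64.6), against 62.5% of the replicate 1 peaks on the other chromosomes and 62.3% of all. For replicate 2 the share was 560 of 649 (86.3%, 83.4 to 88.8), against 87.2% on the other chromosomes and 87.0% of all. Both shares lay near those of the other chromosomes. Replicate 1 peaks of chromosome III that were shared had a median strength of 10.2 and were 429 bp wide at the median, while those not shared had 4.68 and 204 bp. Across the 575 shared pairs replicate 1 and replicate 2 strengths gave a Spearman's rho of 0.79 (a description across peaks of the same libraries). Replicate 1 had the higher strength in 411 of the 575 (71.5%), whereas replicate 2 had the wider peak in 334 (58.1%). The 575 pairs are counted by replicate 1 peak, so that a replicate 2 peak over several of them counts more than once. Of the 535 pairs in which each peak had a single partner, replicate 1 had the higher strength in 402 (75.1%) and replicate 2 the wider peak in 297 (55.5%). In the combined list 533 of the 543 peaks with support in both (98.2%) were stronger than the strongest peak of either replicate they overlapped.

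**Figure D3:**
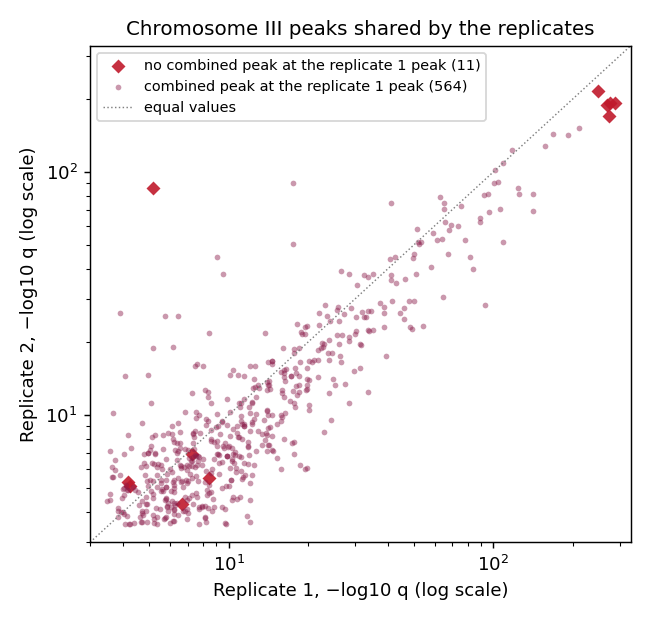
The −log10 q of the 575 chromosome III pairs of a replicate 1 peak and its strongest overlapping replicate 2 peak, replicate 1 on the x axis and replicate 2 on the y axis, both on a log scale. Diamonds mark the 11 pairs whose replicate 1 peak had no combined peak, and the dotted line marks equal values. A group of 5 diamonds lies at the upper right end, beyond all pairs with a combined peak.

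The 10 combined peaks of lowest q with support in both replicates were 843 to 4743 bp wide, and 7 of them lay in the left outer part, 2 in the right outer part and 1 in the central part. The strongest, from 1875906 to 1877193, reached a strength of 302.2 combined, 210.3 in replicate 1 and 151.0 in replicate 2. It lay in the 100 kb window that starts at 1800001, as did the peaks from 1892911 to 1894401 (219.6 combined, 108.9 in replicate 1, 108.7 in replicate 2) and from 1833799 to 1834763 (207.8, 141.0 and 69.3 in the same order). In all, 3 of the 22 combined peaks of that window were among these 10 combined peaks. The peak from 11221044 to 11223420 was the second strongest, with 287.9 combined, 168.1 in replicate 1 and 143.9 in replicate 2. It lay in the other window with 22 combined peaks. The peak from 1955271 to 1956298 had 266.8 combined, 192.1 in replicate 1 and 141.8 in replicate 2. The only central one, from 8416835 to 8418174, had 216.2 combined and was slightly stronger in replicate 2 (123.3) than in replicate 1 (117.2). The remaining 4 had combined values from 201.0 to 212.0. Of these, the peak from 2384094 to 2386096 was split in both replicates, into peaks of 834 and 558 bp in replicate 1 and of 1638 and 200 bp in replicate 2. Where a combined peak overlapped several peaks of a replicate, as 2 of these 10 did, the replicate's value is that of the strongest.

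Several of the strongest replicate regions of chromosome III were missing from the combined list. Replicate 1 had 20 peaks with a strength above 100, of which 5 had no combined peak, and replicate 2 had 14, of which 7 had none. Joined where they overlapped, these made 7 regions of 1244 to 2822 bp, 6 in the left outer part and 1 in the right one. The region from 1467795 to 1469308 reached 276.2 in replicate 1 and 192.7 in replicate 2. The region from 2993601 to 2995772 had 273.1 and 170.2 and that from 3240425 to 3242931 had 269.3 and 188.9, replicate 1 first. The 2 others in both lists were those from 2111999 to 2113242, with 287.2 and 191.4, and from 11613946 to 11615596, with 247.7 and 214.8. For the 5 regions in both lists the sum of both replicates' values was 443.3 to 478.6, whereas the highest sum for any combined peak of the chromosome with support in both was 361.3. The other 2 regions, from 1583070 to 1585148 (296.8) and from 2012283 to 2015104 (215.6), were in the replicate 2 list only. The nearest combined peak was 380 to 38098 bp away from these regions. The remaining 61 replicate 1 peaks without a combined peak were weak, with strengths of at most 8.46, and of the remaining 17 in replicate 2 the strongest had 38.1. Counts of strong combined peaks, above all in the left outer part, leave out these regions, and why they are missing was not tested. Strength on any chromosome reached at most 323.3 for combined peaks, 314.5 for replicate 1 peaks and 319.9 for replicate 2 peaks. The sums of 443.3 to 478.6 lay above all 3 values. Whether a list could hold a stronger peak was not tested, so absence of these 7 regions from a list does not show absence of signal. Replicate peaks without a combined peak also lay on other chromosomes, 150 of 3146 in replicate 1 and 38 of 2218 in replicate 2. On chromosome III there were 66 of 936 and 24 of 649. On the other chromosomes their median strength was 3.95 in replicate 1 and 150.2 in replicate 2. Strong replicate 2 peaks were thus missing there too.

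Peaks lay closer together on chromosome III than on the other chromosomes in all 3 lists. The median gap between neighbouring combined peaks was 5230 bp on chromosome III and 7072 bp on the other chromosomes. Replicate 1 gave 6986 bp on chromosome III and 11948 bp elsewhere, and replicate 2 gave 10989 and 16397 bp (mean 8988 ± 2831 bp on chromosome III and 14172 ± 3146 bp elsewhere, SD, n = 2). The smallest gap was 207 bp between combined peaks, 200 bp for replicate 1 and 201 bp for replicate 2. Gaps of at most 2000 bp made up 393 of 1288 on chromosome III (30.5%, exact 95% interval 28 to 33.1), against 25.2% of 5039 on the other chromosomes (adjusted p = 0.000293, Fisher's exact test, two-sided). The other chromosomes taken singly ranged from 21.1% on II and 22.6% on X through 24.8% on V and 26.8% on IV to 28.6% on I, where the median gap was 5662 bp. Replicate 1 had 24.4% of such gaps on chromosome III and 19.9% elsewhere, with 23.5% on IV, and replicate 2 had 21.5% on chromosome III and 17.5% elsewhere, with 19.9% on IV. The tests set chromosome III against the others pooled, and single chromosomes were not tested. Peak density was 93.6 combined peaks per Mb on chromosome III and was not computed for the other chromosomes. The part of density in the share of such gaps was not tested. Among peaks with support in both replicates the share was 17.9% on chromosome III and 15.1% elsewhere, and the difference did not pass (adjusted p = 0.123, Fisher's exact test). It did not pass in the 50% of the combined list with the lowest q either (18.7% and 17.3%, adjusted p = 0.428, Fisher's exact test).

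**Figure D4:**
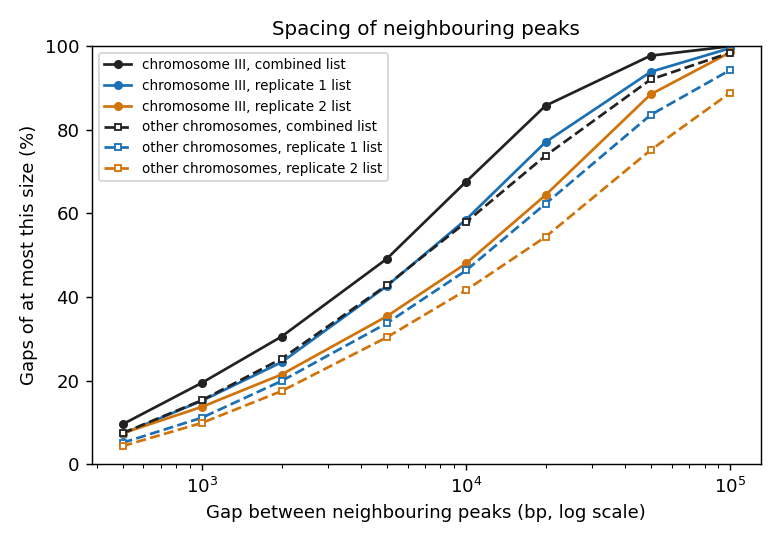
Share of gaps between neighbouring peaks (%) that are at most the size on the x axis (bp, log scale), for chromosome III (solid lines) and the other chromosomes (dashed lines) in each of the 3 lists. In every list the chromosome III line lies above that of the other chromosomes, for example at 2000 bp with 30.5% and 25.2% in the combined list.

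Runs were counted after the data had been seen. On chromosome III, 93 groups of at least 3 combined peaks with gaps of at most 2000 bp held 340 of the 1289 peaks (26.4%), against 932 of 5044 (18.5%) on the other chromosomes. Runs lay in all parts of the chromosome, and 100 of their peaks lay in the left outer part, 92 in the right outer part and 148 in the central part. The longest run had 7 peaks, from 2943497 to 2950203. It was made of weak to moderate peaks, with strengths from 3.36 to 17.7, and 3 of the 7 had support in both replicates. Peaks in runs had support in both in 44.7% of cases and the other peaks in 41.2%. A single peak with no neighbour within 2000 bp was the most frequent case, with 657 peaks.

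The median peak width on chromosome III was 346 bp in the combined list, with quartiles of 216 and 569 bp, and 408 bp on the other chromosomes pooled. Taken singly, these had 384 bp on IV, 385 bp on I, 386.5 bp on V, 430.5 bp on II and 497 bp on X. The nearest median to chromosome III was that of IV in the replicate lists too, with 356 bp in replicate 1 and 452.5 bp in replicate 2. The replicate 1 median was 327 bp on chromosome III and 391 bp elsewhere, and that of replicate 2 was 433 and 492.5 bp (mean 380 ± 75.0 bp on chromosome III, SD, n = 2). Peaks of 1000 bp or more were 95 of 1289 (7.37%, exact 95% interval 6.00 to 8.93) on chromosome III and 8.80% on the other chromosomes, a difference that did not pass (adjusted p = 0.105, Fisher's exact test, two-sided). Chromosomes I (7.62%), IV (7.78%) and V (7.39%) lay near chromosome III, and II (9.69%) and X (12.9%) were higher. In replicate 1 the share was 5.02% on chromosome III and lower on IV (4.48%) and V (4.01%), and in replicate 2 it was 10.8% on chromosome III and lower on IV (8.90%). With a limit of 500 bp the shares were 31.3% and 37.2%, and the difference passed (adjusted p = 0.00019, Fisher's exact test). At 1000 bp it also passed among peaks with support in both replicates (16.4% and 21.1%, adjusted p = 0.0176, Fisher's exact test) and in the 50% of the list with the lowest q (13.5% and 17.6%, adjusted p = 0.0128, Fisher's exact test). These results are against the other chromosomes pooled, and single chromosomes were not compared in these settings. The upper quartile of combined width, 569 bp on chromosome III, was 586 bp on IV, 589 bp on I and 601 bp on V. It was 652 bp on II and 711 bp on X. Of the 95 wide peaks of chromosome III, 89 had support in both replicates (93.7%), against 89.6% of wide peaks elsewhere. Support in both was less frequent among narrower chromosome III peaks, at 78.3% of those from 500 to under 1000 bp, 34.0% of those from 200 to under 500 bp and 1.67% of those from 50 to under 200 bp. These width limits were chosen after the data had been seen. On the other chromosomes the shares were 61.7%, 23.9% and 1.08%. In each width class from 50 bp upwards, the median strength was higher on chromosome III. The medians were 45.9 against 34.0 for 1000 bp or more and 16.3 against 12.3 from 500 to under 1000 bp. From 200 to under 500 bp they were 6.90 against 5.83, and from 50 to under 200 bp 4.41 against 4.11. Under 50 bp they were 3.95 on chromosome III and 4.04 elsewhere. A wide peak also meets an overlap of 1 bp more easily than a narrow one. The parts of strength and of this overlap rule in these shares were not tested.

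Widths on chromosome III were lower than on the other chromosomes pooled at every level of strength. Single chromosomes were not divided by strength. In the weakest class of the combined list the median width was 190 bp on chromosome III and 249 bp elsewhere, and in the strongest it was 698 and 746 bp. In replicate 1 the weakest class had 182 bp on chromosome III and 262 bp elsewhere, and in replicate 2 it had 279 and 330 bp. The chromosome III median was the lower one in all 12 pairs of list and class, although the quartiles of both groups overlapped in each. This division was chosen after the widths had been seen, and it was not tested.

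**Figure D5:**
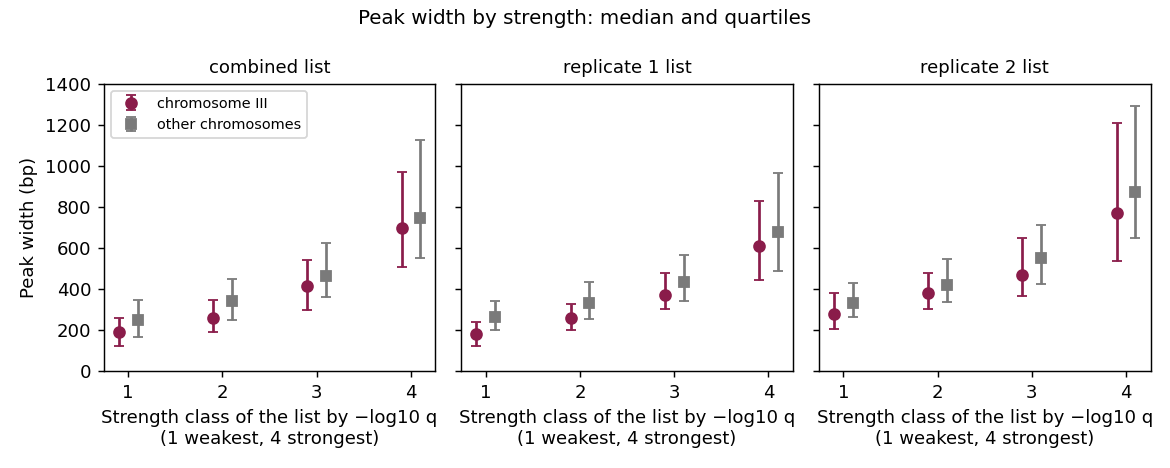
Peak width (bp) by strength class (each list's own −log10 q, 1 weakest and 4 strongest), for chromosome III and for the other chromosomes in the combined, replicate 1 and replicate 2 lists. Points are medians and bars run between the quartiles. The chromosome III median is the lower one in each of the 12 pairs, for example 190 against 249 bp in the weakest class of the combined list.

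At the wide end, the 5 widest combined peaks all had support in both replicates. In 4 of them each replicate had called several peaks. The widest, from 13462384 to 13467126 (4743 bp), overlapped peaks of 3252 and 730 bp in replicate 1 and of 3089 and 1378 bp in replicate 2, and the longer of each pair was the widest chromosome III peak of its list. The next, from 831946 to 836381 (4436 bp), overlapped peaks of 391, 2137 and 1409 bp in replicate 1 and of 1505 and 1429 bp in replicate 2. The peaks from 8799573 to 8802706 (3134 bp) and from 7728350 to 7731396 (3047 bp) each overlapped 2 peaks in either replicate. The peak from 4193169 to 4196043 (2875 bp) was the only one of the 5 that was a single peak in each replicate, of 2728 bp in replicate 1 and 2463 bp in replicate 2. Their strengths ranged from 46.0 to 201.0, so width and strength did not rank these peaks alike.

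At the narrow end, 34 combined peaks of chromosome III were under 50 bp, down to 1 bp. None of the 34 had support in both replicates (0 of 34, which by the limit of 3 counts allows a share of up to 8.82%), and 28 (82.4%) had support in neither. The other chromosomes were alike, with 0 of 103 such peaks in both and 85 of 103 (82.5%) in neither. The 34 peaks of chromosome III had a median strength of 3.95 and a highest of 6.41. Narrow peaks of replicate 1 lay mostly on chromosome III, which held 26 of the 40 in that list (65.0%) but 22.9% of all its peaks. In the combined list it held 34 of 137 (24.8%) and in replicate 2 it held 2 of 6. Of the 26 replicate 1 peaks under 50 bp, 2 overlapped a replicate 2 peak and 13 had no combined peak. The limit of 50 bp was chosen after the widths had been seen, so these counts are given without a test. A narrow peak has less room to overlap a replicate peak, and the part of this in the low support was not tested.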

How the data were processed

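Peak lists were used for ChIP replicate 1, ChIP replicate 2 and a combined list, and samples were grouped by their titles. Worms were grown at 20 degrees and fixed with 2% formaldehyde, per the labels' protocols. Peaks were called with PeakSeq on WormBase WS180, per the file headers and the source column. The q-value of each peak is the one the authors deposited, and the aligner, caller settings, q threshold, use of the input and way of combining replicates were not given in the sources used here. On chromosome III the highest q was 0.000468 combined, 0.000412 for replicate 1 and 0.000292 for replicate 2, and a looser or stricter limit would change peak numbers and widths.

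From these lists the −log10 q, widths, gaps (bases between neighbouring peaks), overlaps of at least 1 bp and counts in windows (by peak centre) were computed with Python 3.11.15, NumPy 2.4.6, pandas 2.3.3 and SciPy 1.17.1, and figures were drawn with matplotlib 3.10.9. Coordinates are 1-based. Intervals are 95% Clopper-Pearson ones (exact binomial) and, like the limit of 3 counts given for 0 of 34 narrow peaks, cover counting error only. Counts were compared by two-sided Fisher's exact tests, adjusted by Benjamini-Hochberg over 4 comparisons with the other chromosomes; outer against central support was a single test. Overlap and test steps were checked on simulated peaks. Regions, limits and tests were chosen with earlier results of these data known. Regions were named by rule: the 10 peaks of lowest q with support in both replicates, the 5 widest, the 3 densest and 3 sparsest windows of 1 Mb, the densest of 100 kb, the longest gaps, and replicate regions stronger than 100 (−log10 q) that no combined peak overlaps. The longest run was named after its values were seen.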

Additional observations from a re-analysis of the deposited data

How the results depend on the processing

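The results were recomputed 48 times with 1 choice changed, of which 7 changed a call, 0 reversed and 12 moved a value without a test. A value was counted as moved beyond 1.5 times for density, outside the exact interval of the outer share for the outer ratio, and by 1 SD of the replicates or more for median gap and width. Leaving out peaks under 50 bp was chosen after seeing the data and changed no call. Support in both replicates, 4.71 percentage points higher on chromosome III than elsewhere, was 2.99 points higher when each list was reduced to its 50% of lowest q and no longer passed. The outer excess in support, 8.01 points, was 5.84 points with outer parts of 33% and did not pass. The excess of gaps of at most 2000 bp, 5.29 points, was 1.33 points in the 50% of the list with the lowest q and 2.81 points among peaks with support in both, and neither passed. The share of peaks of 1000 bp or more, -1.43 points, passed at -5.83 points with a limit of 500 bp, at -4.04 points in the 50% with the lowest q and at -4.70 points among peaks with support in both. Single replicate lists kept the calls on gaps and widths, while support in both cannot be computed from them. The density of 94 peaks per window became 47.2 to 68.3 with a single replicate, 50.3 in the 50% with the lowest q and 39.8 among peaks with support in both, which hold fewer peaks by construction. For the same settings and in the same order, the median gap was 6986 to 10989, 9983.5 and 12476 bp, the median width 327 to 433, 532 and 562 bp, and the ratio of outer to central density 1.19 to 1.41, 1.25 and 1.31. The cause of these shifts was not tested. No paired analysis was possible because the ChIP samples were compared with no other group and inputs, numbered alike, were not used. Read depth is unknown, which limits what an unshared peak shows.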
